A study of Mus musculus with 6 samples.

Results

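Interferon-stimulated genes (ISGs) were followed in the mouse heart after myocardial infarction (MI). The set holds 39 genes, taken as a list of symbols and matched to the NCBI gene numbers of the expression files. All 39 were found among the 17441 genes listed in any library, and all 39 were among the 13120 genes tested, whose value reached 1 in 2 or more libraries. RNA came from heart tissue below the ligature of 12-week-old male mice on a C57BL/6 background, 3 days after surgery. Of the 6 libraries, 2 came from wild-type mice after a sham operation (WT Sham), 2 from wild-type mice whose left coronary artery was ligated (WT MI), and 2 from mice labelled as lacking the adaptor gene *Card9* and ligated in the same way (*Card9* KO MI). No sham-operated *Card9* KO mice were analysed here, and *Card9* KO MI differs from WT Sham in both genotype and infarction, which cannot be told apart. The labels do not say whether the 2 libraries of a group came from separate mice, and p-values then measure only the spread between these libraries, which may be technical. Expression was given as FPKM, fragments per kilobase of transcript scaled to the size of the library, so levels can be compared between genes per length.

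Type I interferons bind the IFNAR receptor and activate the kinases JAK1 and TYK2, which phosphorylate the transcription factor STAT2. STAT2 and IRF9 are subunits of the complex ISGF3, which binds the interferon-stimulated response element (ISRE) in the promoters of ISGs. Interferon gamma acts through a separate receptor and a second promoter element, the gamma-activated site (GAS), and many ISGs respond to both. Their products sense foreign or misplaced nucleic acids, block translation and degrade viral RNA, or feed back on the pathway. In the infarcted heart, nucleic acids of dying cells are a known trigger of type I interferon signaling in infiltrating macrophages.

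In the targeted gene, *Card9*, the WT Sham libraries read 0.99 and 1.03 FPKM, the WT MI libraries 3.39 and 5.08, and those labelled *Card9* KO MI 9.85 and 6.94. *Card9* was therefore not lower under the knockout label (log2 fold change 0.85 against WT MI, standard error (SE) 0.23, adjusted p = 0.11), and each direction between these groups rests on that label. Gene-level FPKM carries no information on single exons. The depth of each library, inferred from the step size among low values, was between 2976000 and 4246000 fragments, and a 2 kb transcript with 3 fragments would then read 0.353 to 0.504 FPKM. Cardiomyocyte markers, the defining transcripts of heart muscle, were abundant throughout, at a summed FPKM of 22540 to 44400. *Card9* KO MI replicate 2 stood apart from all other libraries in the ISGs: 38 of the 39 genes had their highest level there. Medians that rest on this library are therefore also given without it.

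The letters of both elements were looked for in the promoters of the set, and stretches that hold them are shown for genes whose values are described later. A RefSeq promoter (GRCm38.p6 table, from 250 bases before to 50 bases after an annotated start, 300 bases) was matched for 28 of the 39 genes. The ISRE core GAAANNGAA, which reads TTCNNTTTC on the opposite strand, was searched on both strands and occurred in 18 of these 28 (64.3%), against 9.76% of 27025 genes with promoters of the same length. Of the 28, 11 held at least 2 copies, against 0.736% of all genes. The GAS letters TTCNNNGAA, which read the same on both strands, occurred in 8 of the 28 (28.6%) and in 9.55% of all genes. Overlapping copies were counted, and a match describes the letters only. The following stretches of 80 bases lie upstream of the annotated start and outside the gene itself, and were placed on mm9 (NCBIM37) by exact match. They are written 5′ to 3′ on the strand of the gene, with ISRE cores in capitals, or the GAS in the case of *Irf1*.
Ifit1 (chr19:34715244-34715323, plus strand): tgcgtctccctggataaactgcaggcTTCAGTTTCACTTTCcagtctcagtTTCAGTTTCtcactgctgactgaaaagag
Ifit3 (chr19:34657857-34657936, plus strand): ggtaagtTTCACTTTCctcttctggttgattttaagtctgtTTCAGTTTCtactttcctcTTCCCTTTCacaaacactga
Isg15 (chr4:155574956-155575035, minus strand): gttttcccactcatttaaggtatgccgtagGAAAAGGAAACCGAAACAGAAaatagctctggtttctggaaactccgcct
Oas1a (chr5:121357540-121357619, minus strand): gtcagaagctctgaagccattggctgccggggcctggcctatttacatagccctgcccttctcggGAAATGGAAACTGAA
Oas3 (chr5:121227697-121227776, minus strand): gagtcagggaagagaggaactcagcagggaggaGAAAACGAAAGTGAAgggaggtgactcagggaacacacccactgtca
Rsad2 (chr12:27141393-27141472, minus strand): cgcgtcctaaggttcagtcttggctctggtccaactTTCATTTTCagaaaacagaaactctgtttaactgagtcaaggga
Gbp3 (chr3:142222923-142223002, plus strand): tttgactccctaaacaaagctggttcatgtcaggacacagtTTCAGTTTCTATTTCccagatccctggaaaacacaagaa
Igtp (chr11:58012973-58013052, plus strand): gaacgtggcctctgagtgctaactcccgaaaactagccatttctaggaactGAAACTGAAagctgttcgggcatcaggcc
Irf1 (chr11:53583390-53583469, plus strand): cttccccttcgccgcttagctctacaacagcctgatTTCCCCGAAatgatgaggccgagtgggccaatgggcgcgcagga
*Ifit1*, *Ifit3* and *Isg15* each showed 3 copies in these stretches, *Oas1a*, *Oas3* and *Gbp3* 2, and *Rsad2* and *Igtp* 1. Where copies overlapped, the capitals run together. The *Ifit3* stretch occurs a second time, at chr19:34682253-34682332 before the neighbouring gene *Ifit3b*, and reads of these near-identical genes may have been shared.

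Levels in uninjured tissue covered a wide range. *Ifitm3*, which blocks the entry of viruses at membranes, read 174.83 and 158.55 FPKM in the WT Sham libraries. *Ly6e*, a membrane protein that restricts viral fusion, followed at 137.98 and 153.51, and *Lgals3bp*, a secreted galectin-binding glycoprotein, at 50.27 and 37.54. These 3 genes carried 50.6% to 67% of the summed FPKM of the set in the 6 libraries. At the other end, *Mx2* was at 0.13 and 0.41, below the worth of 3 fragments, and *Mx1* at 0.82 and 0.49; both belong to the antiviral dynamin-like GTPases, of which C57BL/6 mice carry defective copies. Over all 39 genes the summed FPKM was 649.8 and 581.1 under sham, 1097 and 1225 for WT MI, and 1571 and 2425 for *Card9* KO MI. Without the 3 abundant genes it was 286.7 and 231.5, 362.1 and 457.4, and 597.8 and 1199, respectively, so the order of the groups did not depend on them.

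**Figure D1:**
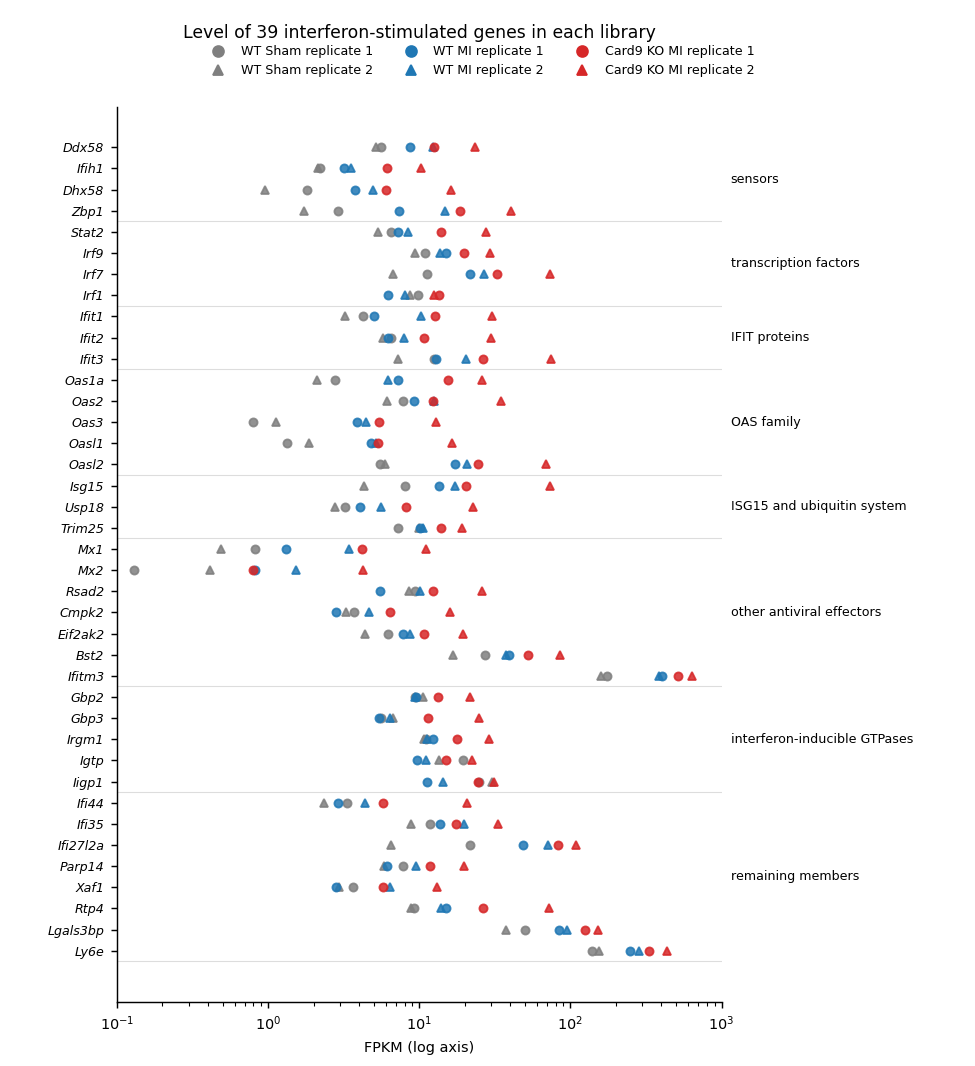
FPKM (log axis) of each of the 39 interferon-stimulated genes in the 6 libraries, grouped by role; circles are replicate 1 and triangles replicate 2. In 38 genes the red triangle, *Card9* KO MI replicate 2, lies farthest to the right.

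Infarction in WT mice was examined next. Compared with WT Sham, 11 of the 39 ISGs were called higher and 1 lower in WT MI (limma, Benjamini-Hochberg adjusted p below 0.05 over all 13120 genes), while 27.7% of all genes were called higher and 9.39% lower. The share of ISGs called higher, 11 of 39, was thus close to that of all genes. The median log2 fold change was 0.62, against 0.19 for all genes, and 33 of the 39 were above 0, against 64.4% of all genes. In 28 ISGs, both WT MI libraries lay above both WT Sham libraries, compared with 48.3% of all genes, and in 3 below, compared with 22.1%. In bulk tissue, a change in the number of cells of a type and a change in RNA per cell cannot be told apart. These values depended on the scale. With quantile normalization, which gives all libraries the same distribution of values, the median was 0.30 for the ISGs and -0.09 for all genes. There 8 ISGs were called higher and 3 lower (limma), against 2198 and 2447 of the 13120 genes. Leaving out WT Sham replicate 2, WT MI replicate 1 or WT MI replicate 2 gave ISG medians of 0.46, 0.77 and 0.40, respectively. The medians of all genes were 0.19, 0.18 and 0.19, and 33, 35 and 30 of the 39 ISGs were above 0.

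The OAS family includes enzymes that sense double-stranded RNA and activate RNase L. It had the highest median log2 fold change of the groups by role after infarction, 1.20, with 3 of 5 genes called higher. *Oasl2* read 5.51 and 5.96 FPKM in WT Sham, against 17.32 and 20.71 after infarction, which did not overlap (log2 fold change 1.57, SE 0.39, adjusted p = 0.016). *Oas3* went from 0.79 and 1.13 to 3.86 and 4.44 (1.40, SE 0.34, adjusted p = 0.014). *Oas1a*, whose promoter holds the overlapping ISRE cores shown above, went from 2.75 and 2.1 to 7.23 and 6.21 (1.18, SE 0.24, adjusted p = 0.0076). *Oas2* lies in the same cluster as *Oas1a* and *Oas3* on chromosome 5 (chr5:121180342-121357536). *Oas2*, at 7.77 and 6.08 against 9.18 and 12.43, was not called (0.57, SE 0.41, adjusted p = 0.31). *Oasl1*, a translational inhibitor of IRF7, was at 1.34 and 1.86 against 4.77 and 5.14, also without a call (1.20, adjusted p = 0.053). *Oas1a* has close paralogs with which reads may have been shared.

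Among the sensors, *Zbp1*, which binds Z-form nucleic acids and engages necroptosis, was called higher, from an FPKM of 2.92 and 1.74 to 7.36 and 14.84 (log2 fold change 1.81, SE 0.40, adjusted p = 0.011). *Ddx58*, encoding RIG-I, was at 5.55 and 5.16 against 8.67 and 12.31 and was called at an adjusted p of 0.047. *Ifih1*, encoding the RNA sensor MDA5, and *Dhx58*, encoding the related LGP2, were not called, although their libraries did not overlap. Of the transcription factors, *Irf7*, the amplifier of type I interferon production, rose from 11.21 and 6.69 to 21.52 and 27.02 (1.37, SE 0.36, adjusted p = 0.020). *Stat2* and *Irf9*, both subunits of ISGF3, had log2 fold changes of 0.35 and 0.47 and were not called. *Irf1*, which is driven by interferon gamma through the GAS, was at 9.86 and 8.73 against 6.2 and 8.03, so that its libraries lay lower after infarction (-0.35, adjusted p = 0.12).

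The largest change of the set in WT MI belonged to *Ifi27l2a*, a small mitochondrial ISG, at 21.64 and 6.55 FPKM in WT Sham against 48.58 and 71.27 after infarction (log2 fold change 2.19, SE 0.45, adjusted p = 0.0073). The second of its WT Sham libraries was at a ratio of 0.303 to the first, and leaving out single libraries moved the log2 fold change between 1.40 and 2.99. The 3 abundant genes were among the steadiest. *Ifitm3* was at 402.52 and 387.79 in WT MI (1.24, SE 0.12, adjusted p = 0.00024), *Ly6e* at 248.35 and 284.12 (0.86, SE 0.14, adjusted p = 0.0029) and *Lgals3bp* at 84.31 and 95.37 (1.03, SE 0.16, adjusted p = 0.0021), and all were called under each of 17 other settings. *Bst2*, encoding the virion-tethering protein tetherin, was at 27.32 and 16.79 against 39.21 and 37.32, with a call at an adjusted p of 0.046. In contrast, none of the 3 IFIT genes, which bind foreign RNA caps and block translation, was called, with log2 fold changes from 0.17 to 0.81. The same held for the ISG15 system (*Isg15*, *Usp18*, *Trim25*; 0.25 to 1.23). *Isg15*, the ubiquitin-like modifier itself, was at 8.07 and 4.34 against 13.58 and 17.27, with an adjusted p of 0.10.

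The interferon-inducible GTPases, which disrupt the vacuoles of intracellular pathogens and respond strongly to interferon gamma, showed another pattern. None of *Gbp2*, *Gbp3*, *Irgm1*, *Igtp* and *Iigp1* was called higher in WT MI, 1 was called lower, and 4 of 5 log2 fold changes were below 0 (median -0.06). Their summed FPKM was 70.68 and 71.59 (WT Sham) and 48.25 and 52.47 (WT MI). *Iigp1* accounted for much of this, at 24.97 and 30.18 against 11.24 and 14.29 (-1.06, SE 0.17, adjusted p = 0.0026), and it was called lower under all 17 other settings. *Igtp* was at 19.59 and 13.54 against 9.64 and 11.16 and was not called (-0.61, adjusted p = 0.067). *Gbp2*, *Gbp3* and *Irgm1* had log2 fold changes between -0.06 and 0.10. With quantile normalization the median of the 5 GTPases was -0.34 and 2 were called lower. The median of all genes also fell there, from 0.19 to -0.09, and 2447 of the 13120 genes were called lower.

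The libraries labelled *Card9* KO MI were then compared with WT MI. All 39 ISGs were higher in the mean, with log2 fold changes from 0.51 to 1.53 and a median of 0.91, whereas the median of all genes was 0.04 and 56.3% of them were above 0. In mean FPKM the ratio of *Card9* KO MI to WT MI lay between 1.44 and 3.64, and it was at least 2 in 25 of the 39. Only 2 ISGs passed the adjusted threshold as higher and 0 as lower, against 0.816% and 0.587% of all genes. Both *Card9* KO MI libraries lay above both WT MI libraries in 35 ISGs, compared with 30.8% of all genes, and 0 showed the reverse order (21.9% of all genes); in the other 4 (*Oas2*, *Mx2*, *Ifi35* and *Xaf1*) the groups overlapped. At an unadjusted p below 0.05 (limma), 33 ISGs were higher, while 2629 of the 13120 genes were at that p in either direction. With 2 libraries against 2, permuting the labels exactly for 1 gene cannot give a p as low as 0.05, and this was not done.

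**Figure D2:**
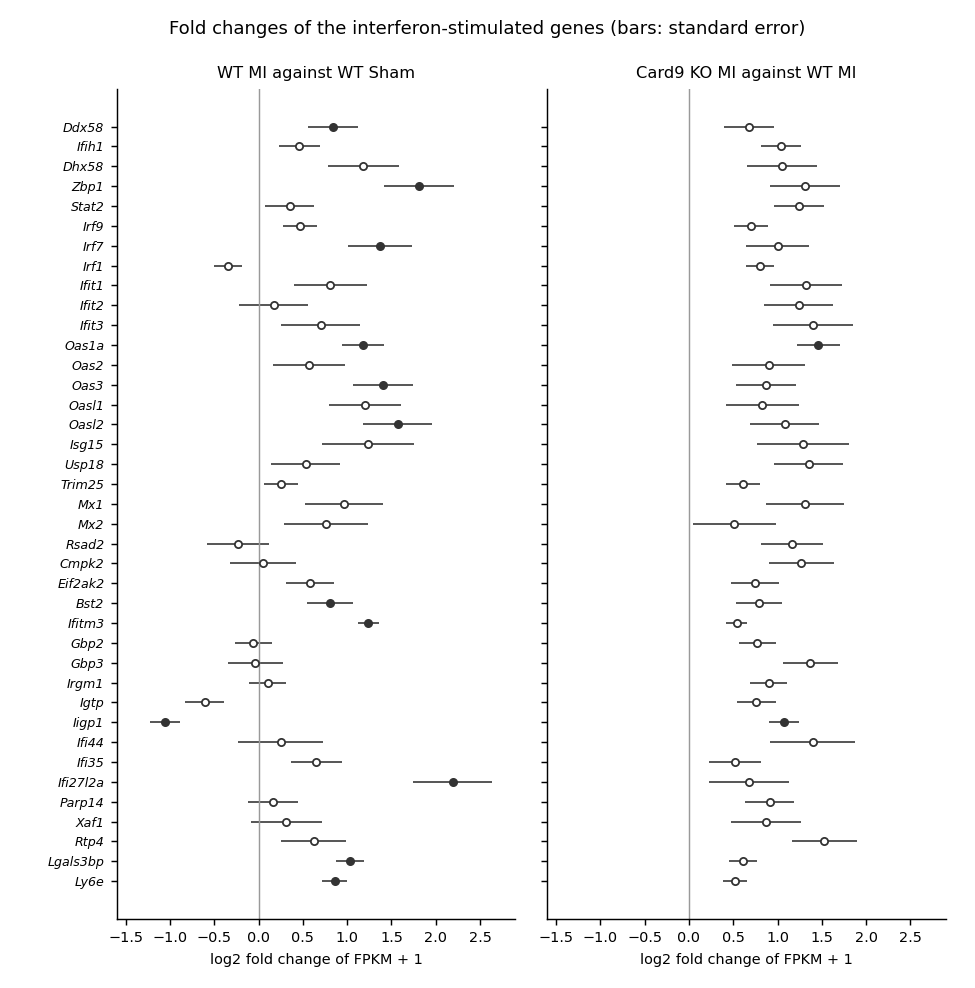
Log2 fold change of FPKM + 1 with its standard error for each gene, in WT MI against WT Sham (left) and *Card9* KO MI against WT MI (right); filled points were called at an adjusted p below 0.05. On the left 11 points are called above 0 and *Iigp1* below, and on the right all 39 points lie above 0 and 2 are called. The panels share the WT MI libraries.

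The 2 called genes came from different families. *Oas1a* was at 7.23 and 6.21 (WT MI) against 15.47 and 26.19 (*Card9* KO MI), with no overlap (log2 fold change 1.46, SE 0.24, adjusted p = 0.042). *Iigp1* was at 11.24 and 14.29 against 24.55 and 31.18 (1.07, SE 0.17, adjusted p = 0.037). Its *Card9* KO MI levels were close to the 24.97 and 30.18 of WT Sham, and against WT Sham its log2 fold change was 0.01 (SE 0.17, adjusted p = 0.96). Both calls lay close to the threshold, and neither held with any single library left out. In those fits the log2 fold change lay between 1.10 and 1.82 for *Oas1a* and between 0.90 and 1.23 for *Iigp1*. *Oas1a* was called under 6 and *Iigp1* under 7 of 17 other settings, with adjusted p from 0.025 to 0.23 and from 0.023 to 0.25, respectively.

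The largest log2 fold change belonged to *Rtp4*, a chaperone-like ISG, at 15.01 and 13.98 (WT MI) against 26.58 and 71.77 (*Card9* KO MI; 1.53, SE 0.37, adjusted p = 0.094). *Ifit3*, of the IFIT family, was at 12.98 and 20.27 against 26.59 and 74.55 (1.40, SE 0.45, adjusted p = 0.15). *Ifi44*, a gene of poorly defined function, was at 2.88 and 4.35 against 5.72 and 20.57 (1.40, SE 0.48, adjusted p = 0.16). In each of these the groups did not overlap, but the second *Card9* KO MI library was far above the first, and the SE was large. *Gbp3*, with overlapping ISRE cores in its promoter, followed at 5.41 and 6.41 against 11.38 and 24.68 (1.37, SE 0.31, adjusted p = 0.077). All 3 IFIT genes, neighbours on chromosome 19 (chr19:34625184-34724499), had log2 fold changes between 1.24 and 1.40. *Usp18*, the protease that removes ISG15 and restrains IFNAR signaling, was at 4.04 and 5.59 against 8.12 and 22.52. The divergent neighbours *Rsad2*, encoding viperin, and *Cmpk2*, a nucleotide kinase (chr12:27127618-27164700), had log2 fold changes of 1.16 and 1.27 and were not called.

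The abundant ISGs had the smaller differences. *Ly6e* was at 248.35 and 284.12 (WT MI) against 331.36 and 436.62 (labelled *Card9* KO MI), with a value of 0.52 on the log2 scale (SE 0.14, adjusted p = 0.12), and *Ifitm3* at 402.52 and 387.79 against 517.42 and 637.94 (0.54, SE 0.12, adjusted p = 0.072). *Lgals3bp* was at 84.31 and 95.37 against 124.6 and 151.66 (0.61, SE 0.16, adjusted p = 0.10). The libraries of these 3 did not overlap. *Ifi35* (0.52, SE 0.29, adjusted p = 0.37) and *Mx2* (0.51, SE 0.47, adjusted p = 0.59) overlapped between the groups, and *Mx2* was at 0.82 and 1.52 against 0.79 and 4.23, partly near the detection limit. All 5 GTPases had both *Card9* KO MI libraries above both WT MI libraries, as did 35 of the 39 ISGs and 30.8% of all genes. The summed FPKM of the GTPases in *Card9* KO MI was 82.1 and 128.6. *Irf1* was at 6.2 and 8.03 against 13.6 and 12.48 (0.80, SE 0.16), and its adjusted p of 0.059 missed the threshold.

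Much of the size of these differences came from 1 library. Between the *Card9* KO MI libraries, the ISGs were higher in replicate 2 by a median of 1.01 on the log2(FPKM + 1) scale, whereas the median over all genes was -0.05. Replicate 2 was above replicate 1 in 38 of 39 ISGs (42.3% of all genes) and at least 1 higher in 20 (0.915% of all genes). Those 120 genes, of which 83 are protein coding, included these 20 ISGs and 6 genes of a further list of interferon-induced genes. They also included relatives of these genes outside both lists, such as *Ifit3b*, *Ifi208*, *Ifi211* and *Oas1g*, and genes abundant in adipose tissue. Both kinds were named after their values were seen, and the adipose genes were at their lowest in replicate 1. *Adipoq*, encoding adiponectin, was at 1.3 and 1.08, 1.62 and 0.42, and 0.19 and 2.38 FPKM in the 3 groups, and *Cfd*, encoding adipsin, at 3.14 and 1.82, 9.01 and 2.25, and 0 and 5.34. *Car3*, *Adig*, *Cyp2e1*, *Pck1* and *Ucp1* had the same order between these 2 libraries, and their part in the ISG levels was not tested. In FPKM, the ratio of replicate 2 to replicate 1 had a median of 2.09 and reached 3.58 for *Isg15* (20.49 and 73.33), 3.60 for *Ifi44*, 3.08 for *Oasl1* (5.36 and 16.51) and 5.35 for *Mx2*. The IFIT genes (median 1.38 on the log2(FPKM + 1) scale), the OAS family (1.43) and the ISG15 system (1.37) differed most between these libraries. The GTPases (0.66) differed less, and the FPKM ratio was 1.27 for *Iigp1* and 0.918 for *Irf1*. In WT MI replicate 2 was above replicate 1 in 32 ISGs (49.8% of all genes), by a median of 0.32 and by at least 1 in 0 (0.732%). In WT Sham it was above in 9 (47.2% of all genes), with a median of -0.21.

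**Figure D3:**
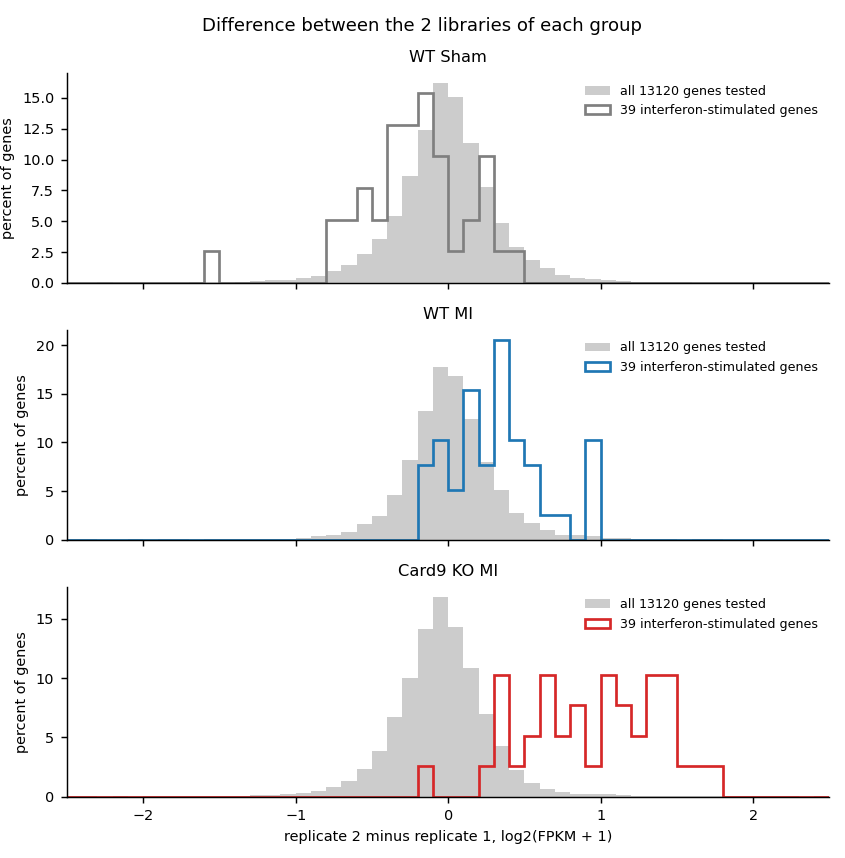
Distribution of the difference between replicate 2 and replicate 1 on the log2(FPKM + 1) scale in each group, in percent of genes, for all 13120 genes tested (grey) and the 39 interferon-stimulated genes (outline). The median of the outline is -0.21, 0.32 and 1.01 from top to bottom.

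Without *Card9* KO MI replicate 2, the direction held in 38 of 39 ISGs (59.2% of all genes). The median log2 fold change against WT MI fell to 0.48, beside 0.08 for all genes. The exception was *Mx2*, at -0.26. Replicate 1 alone lay above both WT MI libraries in 35 ISGs, as against 47.7% of all genes. Here *Oas1a* (1.10), *Iigp1* (0.90), *Irf1* (0.86), *Gbp3* (0.85) and *Rtp4* (0.83) had the largest log2 fold changes of the set, while the median of the ISG15 system was 0.40 and that of the OAS family 0.32. Without replicate 1 the median was 1.43, with 4 called (*Gbp3*, *Ifit2*, *Oasl2* and *Rtp4*), as were 0.061% of all genes. These 4 calls rest on *Card9* KO MI replicate 2 alone, the library that stood apart in the ISGs. No ISG was called with *Card9* KO MI replicate 2 or either WT MI library left out. Leaving out WT MI replicate 1 or replicate 2 gave medians of 0.82 and 1.15, each with all 39 above 0 (55.9% and 55.6% of all genes). In these fits 0.0381% and 0.0838% of all genes were called higher and 0.0381% and 0.0686% lower, and the lone library of a group was assumed to vary like the others.

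Against WT Sham, 35 ISGs were called higher in *Card9* KO MI and 0 lower, compared with 34.8% and 14.3% of all genes. All 39 log2 fold changes were above 0 (64.9% of all genes), with a median of 1.52 against 0.24 for all genes, and the libraries did not overlap in 37 (51.6% of all genes). This comparison shares the *Card9* KO MI libraries with the one above and the WT Sham libraries with that of infarction. *Zbp1* changed most, from 2.92 and 1.74 to 18.63 and 40.25 (log2 fold change 3.12, SE 0.40, adjusted p = 0.00058). *Ifi27l2a* (2.87, SE 0.45, adjusted p = 0.0014), *Oasl2* (2.65, SE 0.39, adjusted p = 0.0011), *Oas1a* (2.63, SE 0.24, adjusted p = 0.00012) and *Isg15* (2.52, SE 0.52, adjusted p = 0.0051) came next. *Irf7*, *Oas3*, *Mx1*, *Dhx58* and *Rtp4* lay between 2.15 and 2.37. The 4 ISGs that were not called were *Iigp1* (0.01), *Igtp* (0.16), *Rsad2* (0.93) and *Mx2* (1.28). The count of 35 depended on the setting. Without the filter 28 ISGs were called higher (limma), beside 4349 of 17441 genes. With quantile normalization it was 27, beside 2755 of the 13120 genes, and the median was 1.26, against -0.1 for all genes. With *Card9* KO MI replicate 2 left out, the median was 1.11, against 0.27 for all genes.

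Cell type markers also differed between the groups, in both directions. Compared with WT Sham, all 11 macrophage markers, such as *Cd68* and *Csf1r*, were called higher in WT MI, with summed FPKM of 423.4 and 364.6 (WT Sham), 1444 and 1849 (WT MI), and 2951 and 2150 (*Card9* KO MI). In *Card9* KO MI against WT MI their median log2 fold change was 0.73, with all 11 above 0 and 1 called. Between the *Card9* KO MI libraries they went the other way from the ISGs: replicate 2 was lower than replicate 1 in 10 of the 11, by a median of -0.42. Neutrophil markers summed to 7.64 and 5.4, 211.8 and 92.89, and 59.84 and 46.73 FPKM in the 3 groups. Of the 5 monocyte markers, 4 were above 0 in *Card9* KO MI against WT MI (median 0.44, 0 called higher), such as *Ly6c2* at 9.47 and 12.6 against 17.93 and 24.84. The exception, *Chil3*, was called lower, at 86.47 and 57.22 against 13.71 and 12.11 (-2.36, SE 0.21, adjusted p = 0.0073). Fibroblast markers summed to 482.6 and 458.9, 1435 and 1938, and 3120 and 2986, and 3 of 6 were called higher in *Card9* KO MI than in WT MI (*Col1a1*, *Col1a2* and *Postn*, median of the 6 0.87). Cardiomyocyte markers were below 0 in 6 of 7 in that comparison, with a median of -0.20 and 0 called by limma (3 at an unadjusted p below 0.05). Without *Card9* KO MI replicate 2 the medians were 0.87 for macrophage, 0.49 for monocyte, 0.93 for fibroblast, -0.65 for neutrophil and -0.31 for cardiomyocyte markers. Markers of T and NK cells, the usual sources of interferon gamma, summed to no more than 8.63 FPKM over 9 genes in any library. Of the markers of plasmacytoid dendritic cells, specialised producers of type I interferon, *Klk1* was listed in 0 libraries, *Siglech* only in *Card9* KO MI at 0.48 and 0.2, and *Ccr9* at no more than 0.31, all about or below the worth of 3 fragments. The part of these cell types in the ISG levels was not tested.

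**Figure D4:**
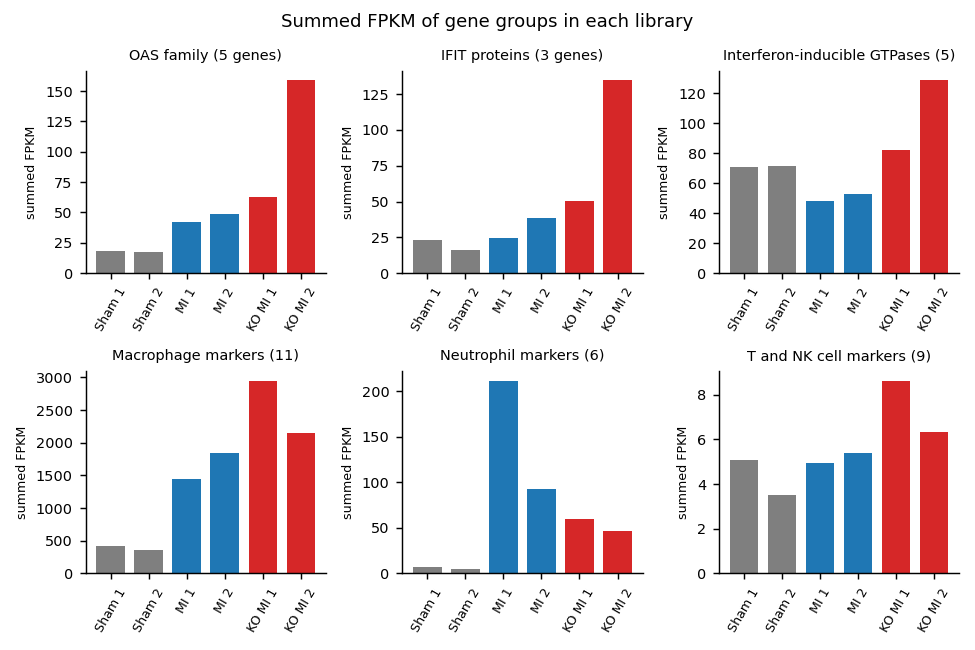
Summed FPKM of 3 families of interferon-stimulated genes (upper row) and of markers of 3 cell types (lower row) in each of the 6 libraries; bars start at 0 and there is 1 bar per library. In *Card9* KO MI replicate 2 the families are at their highest (158.9, 134.6 and 128.6), while the macrophage markers stand at 2150 against 2951 in replicate 1.

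The interferons themselves were hardly seen. *Ifnb1*, *Ifne*, *Ifna1*, *Ifna2*, *Ifna4*, *Ifnl2* and *Ifnl3* were listed in 0 of the 6 libraries, and *Ifng* only in WT MI replicate 1, at an FPKM of 0.21, below the worth of 3 fragments. At this depth low interferon transcripts were not detectable. Of the type I receptor chains, *Ifnar1* was at 10.18 and 9.41 (WT Sham), 14.64 and 13.85 (WT MI), and 17.46 and 15.48 (*Card9* KO MI), and was called higher after infarction (log2 fold change 0.50, SE 0.13, adjusted p = 0.017). *Ifnar2* was called as well (0.73, SE 0.14, adjusted p = 0.0065), whereas *Ifngr2*, a chain of the interferon gamma receptor, was called lower (-0.40, SE 0.11, adjusted p = 0.022). None of the 6 receptor genes was called between *Card9* KO MI and WT MI, with log2 fold changes from -0.32 to 0.21.

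Of the list of pathway genes outside the set, 31 were tested; in WT MI, 14 were called higher and 2 lower than in WT Sham (27.7% and 9.39% of all genes). The largest were *Socs3*, a feedback inhibitor of cytokine signaling (2.27, SE 0.21, adjusted p = 0.00021), *Ptpn6*, a phosphatase of blood cells (1.78, SE 0.15, adjusted p = 0.00014), and *Ikbke*, a kinase that activates IRF3 (1.74, SE 0.32, adjusted p = 0.0044). In *Card9* KO MI against WT MI 2 were called higher and 0 lower, against 0.816% and 0.587% of all genes, and the median was 0.18, below the 0.91 of the ISGs. Without *Card9* KO MI replicate 2 the median was 0.27. The called genes were both endosomal nucleic acid receptors. *Tlr7*, for single-stranded RNA, was at 1.59 and 1.48, 5.11 and 5.45, and 9.84 and 11.98 in the 3 groups (0.92 against WT MI, SE 0.16, adjusted p = 0.048). *Tlr9*, for unmethylated DNA, was at 0.54 and 0.57, 2.19 and 2.69, and 5.85 and 6.71 (1.08, SE 0.19, adjusted p = 0.047). Neither differed much between the *Card9* KO MI libraries, although both calls were close to the threshold and were lost in most other settings, with 3 and 5 calls in 17 and 16 of them. Against WT Sham, 20 were called higher and 3 lower in *Card9* KO MI (34.8% and 14.3% of all genes). The median there was 0.61, and 0.6 without replicate 2.

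A further list of 54 interferon-induced genes, of which 53 were tested, allowed a comparison with genes outside the set. In WT MI against WT Sham 18 were called higher and 4 lower, beside 27.7% and 9.39% of all genes, led by *Ifi30*, a lysosomal thiol reductase of antigen-presenting cells (3.42, SE 0.21, adjusted p = 4.8e-05). In *Card9* KO MI against WT MI, 49 of the 53 were above 0 (56.3% of all genes), with a median of 0.68, 2 called higher and 0 lower (0.816% and 0.587% of all genes). Without *Card9* KO MI replicate 2, 46 were above 0 (59.2% of all genes) and the median was 0.37. *Ms4a4c*, a membrane protein of myeloid cells, was at 0.38 and 0.38, 4.5 and 4.69, and 12.86 and 25.03 in the 3 groups (1.76 against WT MI, SE 0.28, adjusted p = 0.037). *Tgtp1*, a GTPase of the same family as *Iigp1*, was at 3.69 and 3.79, 1.07 and 1.6, and 6.2 and 4.08. It was thus called lower after infarction in WT (-1.03, SE 0.23, adjusted p = 0.010) and higher in *Card9* KO MI than in WT MI (1.38, SE 0.23, adjusted p = 0.040), the order seen in *Iigp1*. *Tgtp1* was called higher under 5 of 16 other settings (adjusted p from 0.024 to 0.27), and in 0 of those that left out a single library, and *Ms4a4c* under 7 of 17 (0.021 to 0.25). Near-identical copies of *Tgtp1* may share its reads. Against WT Sham, 38 were called higher and 1 lower in *Card9* KO MI (34.8% and 14.3% of all genes). The median there was 1.0, and 0.81 without replicate 2. Between the *Card9* KO MI libraries the list was higher in replicate 2 by a median of 0.62.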

How the data were processed

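RNA-seq was available for 3 groups of 2 libraries, assigned from the labels. Per the labels and the study's methods, poly(A) RNA was enriched and read on an Illumina HiSeq; the notes name BWA, Bowtie2 and the build mm9 for mapping. The FPKM values deposited by the authors list 1 value per NCBI gene number and only genes above 0; missing genes were set to 0. The annotation, the counting tool and the use of strand are not given in the sources used here, so overlapping genes and paralogs may share reads.

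Genes that reached 1 FPKM in 2 or more libraries were tested on log2(FPKM + 1) with limma 3.58.1 in R 4.3.3 (lmFit, eBayes with trend, 3 groups in one fit, Benjamini-Hochberg adjustment over 13120 genes), since FPKM allows no count test. Fold changes on this scale understate those of low genes. Between 64.6% and 68.8% of low values came out within 0.1 of whole fragments at the estimated depth, so counts were not rebuilt. The script was tested on simulated data. The 39 genes and all lists were chosen with earlier results of these data known. Named genes are the members, the called genes with the largest changes, the 5 highest and lowest members in *Card9* KO MI against WT MI, the ligands and receptors, and *Card9*; statistics of further members were added after their values were seen. Alternatives were a pseudocount of 0.1 or 5, other filters and scalings, a fit of only the groups compared, no trend, the replicate number as a block, and each library left out.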

Additional observations from a re-analysis of the deposited data

How the results depend on the processing

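The results are limited by 2 libraries a group, by the lack of read counts, by interferon transcripts under the detection limit, and by the knockout label, against which *Card9* itself went. Over the alternatives, summary values stayed within the spread or within 1.5 times in 183 recomputations and moved in 36, not all of which are given here.

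In WT MI against WT Sham, 11 ISGs were called higher; the count was 7 without the filter and between 4 and 16 with single libraries left out. Without the filter, 3264 of 17441 genes were called higher, against 3637 of 13120 with it. Leaving out any WT library lowered the calls over all genes as well as those of the ISGs. The count of 16 ISGs came with either *Card9* KO MI library left out, where the calls over all genes did not rise. The count of ISGs called lower was 3 with upper-quartile scaling, quantile normalization or scaling without the 100 most abundant genes. In these settings 2064, 2447 and 1830 of the 13120 genes were called lower, respectively. The median of 0.62 was 0.38 with a pseudocount of 5 and 0.30 with quantile normalization, and between 0.40 and 0.77 with single libraries left out.

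In *Card9* KO MI against WT MI, the 2 calls became 0 with a pseudocount of 0.1, without the filter, with only the 2 groups compared or without the trend. In these settings 27 to 33 ISGs were at an unadjusted p below 0.05 (limma), and 7 to 69 of all genes were called higher. *Oas1a* and *Iigp1* also lost their calls with any single library left out. The median of 0.91 lay between 0.48 and 1.43 with single libraries left out, and the log2 fold change of *Mx2* between -0.26 and 1.29. The cause was not tested.

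With the replicate number as a block, 1 ISG was called higher (*Iigp1*), with 0 pathway genes and 0 other interferon-induced genes. Deviations from the group means of same-numbered libraries correlated at 0.002, -0.008 and 0.02. No pairing by number was thus seen over the genes as a whole. Whether a small set of genes shifts with the number cannot be read from these values. For the ISGs, replicate 2 was the higher library in 9 of 39 genes under sham, 32 after WT infarction and 38 under the knockout label. A common origin of these shifts was not tested.

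The 2 pathway genes called in *Card9* KO MI against WT MI became 0 with a pseudocount of 0.1, without the filter or under scaling by the upper quartile, and 1 under quantile normalization, and the 2 other induced genes became 0 with a pseudocount of 0.1 or without the filter. Without the filter, 2 other induced genes were called lower in WT MI, beside 1057 of 17441 genes. With quantile normalization, *Card9* KO MI against WT Sham gave 13 pathway genes higher and 5 lower, and 24 other induced genes higher and 2 lower. In that setting 2755 of the 13120 genes were called higher and 3444 lower.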
